A study of Mus musculus with 6 samples.

Results

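The long internal exons described here are merged exon blocks of 1000 bases or more that lie between the first and the last exon block of a mouse gene. Repeated exon lines of the deposited count table were dropped, the overlapping exons of each gene were merged into blocks, and a block was taken when it was neither first nor last, held at least 30 counts over the 6 libraries and lay in a gene with at least 50 counts in every library. The blocks were thus chosen by their annotated span and their counts summed over both groups, not by a test of the difference between groups. A block with fewer than 30 counts in either group could therefore enter only with the counts of the other group. There were 3983 such blocks in 2850 genes, of 291424 blocks in 55378 genes in all and of 58356 internal blocks of any length with the same count minimums. Mouse zygotes were microinjected with a negative control siRNA (siRNA-NC) or with siRNA-Eif4a3, and embryos were collected on day 5, described by the submitters as blastocysts. Each group had 3 libraries, each made from a pool of 5 embryos with Smart-seq2 from polyadenylated RNA and read as pairs of 150 bases. No strain, sex or genotype was given, the embryos of a pool were not distinguished, and the labels do not say how many siRNAs against Eif4a3 were injected. The labels do not say whether pools came from separate injection days, so the p-values below measure the spread between these pools.

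Eif4a3 encodes a DEAD-box RNA helicase that is a core subunit of the exon junction complex. The spliceosome leaves this complex on spliced mRNA a short way upstream of each exon-exon junction, at about 20 to 24 bases before it. Most internal exons of vertebrate genes are short, so a long internal exon is a stretch of mature mRNA without nearby junctions, and long internal exons are known as places where the RNA methylation mark m6A is dense. A block that is long in an annotation can also be something else: an intron kept in an unfinished transcript, or the terminal exon of a shorter isoform that ends inside the gene.

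The label fitted only some of the blocks. Their exon lines were matched by coordinates to GENCODE vM21 transcripts (mouse build GRCm38), and 3975 of the 3983 blocks matched at least 1 exon. A long exon that was internal to a transcript and coding throughout was found in 218 blocks. A long internal exon that was not wholly coding was found in 245 others. Of the others, 2419 owed their length to an exon of a retained-intron transcript, 868 to the last exon of a shorter transcript and 71 to an alternative first exon. Another 139 were long only because shorter exons overlapped, and 23 had no vM21 exon of that length. This division was made after values were seen. The median span was 1944 bases, and 1712 blocks (43.0%) joined exons that lie apart from each other in other transcripts. A read touching an exon line shorter than 1000 bases was common inside the blocks: in 2169 of them such a line took 80% or more of the block's counts, against 11 of the 218 wholly coding ones.

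The ends of selected long exons are shown first, because the junction that follows is where the complex would sit. Each sequence is the last 60 bases of the exon followed by the first coding bases of the next exon (30, or 21 for Ythdf2), 5′ to 3′ on the gene's strand, from GENCODE vM21 transcripts. The capitals mark the 5 bases that lie 24 to 20 bases before the junction. Palld is shown because its block was called, Slc45a4 and Rreb1 because their shares were lower after the knockdown and did not overlap the controls, Setd2 because its share was higher, and Ythdf2 and Son as abundant exons of RNA-binding proteins.
Palld, exon chr8:61876913-61877915, minus strand: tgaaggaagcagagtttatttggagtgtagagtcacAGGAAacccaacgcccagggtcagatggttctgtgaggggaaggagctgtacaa
Setd2, exon chr9:110547209-110551494, plus strand: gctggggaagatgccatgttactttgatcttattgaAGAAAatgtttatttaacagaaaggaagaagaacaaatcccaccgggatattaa
Rreb1, exon chr13:37929558-37932489, plus strand: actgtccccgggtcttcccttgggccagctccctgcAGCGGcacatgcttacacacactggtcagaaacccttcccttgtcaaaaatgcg
Slc45a4, exon chr15:73586019-73587085, minus strand: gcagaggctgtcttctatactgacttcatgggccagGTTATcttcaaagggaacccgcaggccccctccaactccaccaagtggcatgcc
Ythdf2, exon chr4:132204132-132205715, minus strand: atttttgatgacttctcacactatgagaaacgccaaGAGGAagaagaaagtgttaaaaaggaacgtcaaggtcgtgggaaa
Son, exon chr16:91654611-91660580, plus strand: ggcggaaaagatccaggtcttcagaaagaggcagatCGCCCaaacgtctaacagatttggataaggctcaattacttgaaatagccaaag

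Wtap, whose protein anchors the m6A writer complex, gave a different kind of long block, and its alternative ends are shown because they are what the counts separate. Both lines share the last 40 coding bases of a 179-base internal exon. The capitals mark the 20 bases that follow: in the first line the exon runs on into its extension, which makes it the 2790-base last exon of a short isoform (chr17:12972685-12975474, minus strand), and in the second line it is spliced to the next exon of 155 bases (chr17:12969405-12969559, minus strand).
Wtap, read into the extension: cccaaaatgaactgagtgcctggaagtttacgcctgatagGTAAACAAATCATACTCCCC
Wtap, spliced to the next exon: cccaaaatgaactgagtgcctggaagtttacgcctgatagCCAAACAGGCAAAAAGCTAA

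Block counts summed to between 15607226 and 18697761 per library. Eif4a3 itself stood at 302, 255 and 202 CPM (counts scaled to a common library size) in the NC libraries and at 16.0, 36.2 and 56.2 CPM after siRNA-Eif4a3. All 3 knockdown pools were below all 3 control pools, and the gene fell by 2.81 on the log2 scale (SE 0.44, adjusted p = 0.00513, edgeR quasi-likelihood test). An exact two-sided permutation test gave p = 0.1, the smallest that 3 against 3 allows. On log2(CPM + 1), libraries correlated at 0.942 to 0.978 within groups and at 0.864 to 0.921 between groups. Blastocyst lineage markers summed to 2855 to 6390 CPM in NC and 974 to 2595 CPM after the knockdown, with 5 of 14 genes lower and 0 higher by edgeR. All these sums cover only the listed genes that passed edgeR's filter on low counts. Of 12 cumulus markers, 6 were at 0 throughout and only 1 passed. That gene stood at 3.02 to 12.1 against 19.8 to 57.3 CPM and was called higher (log2 2.66). The 7 blood markers that passed summed to 23.7 to 92.0 against 24.1 to 155 CPM, with 2 lower and 0 higher by edgeR. For fibroblasts 3 markers passed, at 1.64 to 11.6 against 1.02 to 10.2 CPM. For sperm 1 marker passed, at 8.14 to 14.6 against 12.1 to 19.5 CPM. The part of these shifts in the results below was not tested.

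Block usage was measured as the share of a gene's counts that fell in the block, and tested with edgeR's exon usage test over all 67890 blocks that passed its filter on low counts. Of the 3983 long internal blocks, 3558 were tested and 425 did not pass that filter. Among the tested ones 3 rose and 1 fell at an adjusted p under 0.05, against 0.175% of all tested blocks called in either direction (0.13% higher and 0.0457% lower). Internal blocks under 1000 bases with the same count minimums were called at 0.202% (0.157% higher and 0.0457% lower). With 4 called of 3558, the long blocks were called at about the background rate. At an unadjusted p under 0.05, 45 long blocks were higher and 81 lower, where all tested blocks gave 1.43% higher and 1.11% lower, and the shorter internal blocks 1.48% and 0.998%. As shares of the tested long blocks these were 1.27% higher and 2.28% lower.

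Over all 3983 blocks the median log2 change in share was -0.0024, and the middle 50% of blocks lay between -0.24 and 0.20. The shorter internal blocks had a median of 0.02. The shares of 379 long blocks were higher in every knockdown library than in any NC library, and those of 439 were lower, together 20.5% of the blocks (9.52% higher and 11.02% lower), beside 19.2% of all tested blocks (10.7% higher and 8.51% lower). The shorter internal blocks that were tested gave 11.4% higher and 7.59% lower. By length, the median was 0.0050 for spans from 1000 to under 2000 bases, -0.0076 from 2000 to under 5000 bases and -0.03 for the 128 blocks of 5000 bases or more. At the length minimum, the 100 blocks just inside (spans 1000 to 1036) had a median of 0.04 and the 100 just outside (974 to 999) one of -0.0069. At the count minimum, the 100 blocks just inside (30 to 36 counts) had a median of 0.10 and the 100 just outside (22 to 29 counts) one of -0.21. The blocks held 5.47% ± 0.191 (SD, n = 3) of all counts in NC and 5.43% ± 0.10 after the knockdown, so their summed level did not separate the groups.

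The block called with the smallest p lay in Arl4a, which encodes a small GTPase of the ARF-like family (chr12:40006700-40009820, minus strand, 3121 bases). It held 0, 0 and 0 counts in the NC libraries and 37, 57 and 38 after the knockdown, or 6.58%, 7.88% and 4.48% of the gene's counts. No NC library had a count, although the gene itself held 183, 325 and 326 counts there. The block thus met the minimum of 30 counts through the knockdown libraries alone. With 3 counts assumed in the NC group as a whole, the share was at least 17.2-fold higher after the knockdown (adjusted p = 0.0155, edgeR). The reads were concentrated in a short exon at one end of the block, since the 119-base exon line there took 26, 54 and 38 of the counts. Within the block, the rise therefore lay mostly in a short exon, not in the long exon merged over it. The short exon belongs to a transcript annotated as a target of nonsense-mediated decay. The neighbouring blocks rose as well: relative to them the log2 change of the block was 0.49, against a usage change of 7.19.

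In Nfe2l2, which encodes the oxidative stress transcription factor NRF2, the called block was the last exon of a short noncoding transcript (chr2:75691052-75692372, minus strand, 1321 bases). Its share was 0.936%, 2.07% and 2.67% in NC and 8.85%, 13.1% and 10.6% after the knockdown. Every knockdown library lay above every NC library, with a log2 usage change of 2.42 (adjusted p = 0.0235). Palld, which encodes the actin-binding protein palladin, gave the only called block whose long exon is internal and mostly coding: 929 of its 1003 bases. Counts in this block were 7, 4 and 14 in NC and 75, 43 and 49 after the knockdown, or 1.37%, 0.964% and 3.12% against 7.73%, 15.7% and 9.72% of the gene. The groups did not overlap, and the log2 usage change was 2.42 (adjusted p = 0.0313). The Palld block, like that of Arl4a, met the minimum of 30 counts only with the knockdown counts included. The level of the whole Palld gene missed the threshold (log2 change 0.17, adjusted p = 0.805).

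Gprasp1, which encodes a receptor-associated sorting protein, held the 1 block that fell (chrX:135778906-135780786, plus strand, last exon of a noncoding transcript). The Gprasp1 block met the count minimum only with the NC counts included. Its counts were low throughout, at 13, 9 and 16 in NC and 2, 1 and 4 after the knockdown. These were 3.06%, 3.17% and 5.05% of the gene in NC and 0.372%, 0.165% and 0.789% after the knockdown, without overlap, and the log2 usage change was -3.09 (adjusted p = 0.0434). None of the 4 calls held in every leave-one-out fit: without NC replicate 1 no long block was called, and without another library between 1 and 3 were. The leave-one-out fits called 0.028% to 0.226% of all blocks tested. With limma's usage test in place of edgeR's, 20 long blocks were called, 8 higher and 12 lower, beside 0.367% of all 67890 blocks tested. The Arl4a block was not among them (adjusted p = 0.14). With only internal blocks in the gene's total, Arl4a (0.0559) and Nfe2l2 (0.124) missed the threshold. With no filter on low counts Nfe2l2 (0.0571), Palld (0.101) and Gprasp1 (0.274) missed it, and with the exon lines of a block summed the same 3 did (0.0644, 0.148 and 0.178). Each of the 4 blocks was called in 4 or 5 of the 11 or 12 alternatives in which it was tested.

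**Figure D1:**
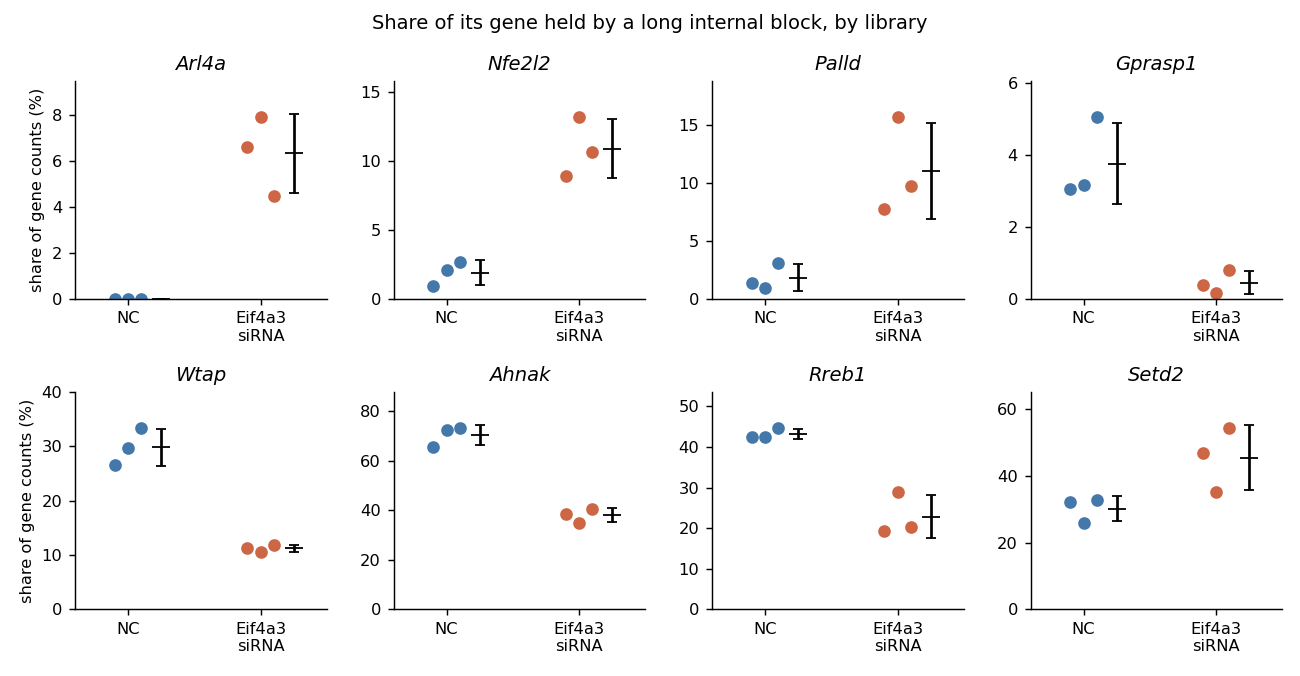
Share of a gene's counts held by 1 long internal block (y axis, %), by library, in 8 genes. Blue points are the 3 NC libraries, orange points the 3 Eif4a3 siRNA libraries, and bars the mean and SD. The Arl4a block is at 0 in all NC libraries, and the Ahnak shares run from 65.7% to 73.3% in NC and from 34.9% to 40.7% after the knockdown.

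Several blocks came near the threshold without passing it. The nearest, in the nuclear export gene Xpo4 (adjusted p = 0.0501), was 15.6% covered by another gene's exons and is left without shares. The 2790-base block of Wtap held 1495, 1327 and 1416 counts in NC and 837, 770 and 876 after the knockdown, while the share of the gene was 26.5%, 29.6% and 33.4% against 11.3%, 10.6% and 11.9%. The groups lay far apart, but the log2 usage change of -1.41 had an adjusted p of 0.0965. Inside the block, the 179-base internal exon whose end is printed above took 488, 491 and 472 counts in NC and 514, 381 and 497 after the knockdown. A 112-base exon line lying wholly in the extension took 473, 394 and 463 counts in NC and 149, 177 and 185 after the knockdown. In counts, the difference within the block thus lay in the extension that follows the shared exon, not in that exon. As a share of the gene, whose total counts rose, the shared exon was lower too, though less than the extension. Downstream, the 155-base exon to which the long isoform is spliced held 137, 158 and 129 counts in NC and 389, 290 and 388 after the knockdown, and the last block held 29.6%, 29.3% and 19.3% of the gene in NC and 56.2%, 64.3% and 55.3% after the knockdown. Both downstream blocks missed the threshold (adjusted p = 1.0 and 0.495). A lower share was not particular to the long block. Upstream, the shares of blocks 5 to 8 from the 5′ end also fell without overlap (log2 -0.70 to -0.79), none past the threshold. The 183-base block 4 did pass it (log2 -2.93, adjusted p = 0.0111, edgeR), with 47, 21 and 24 counts in NC and 6, 3 and 9 after the knockdown. Whole-gene Wtap levels were 280, 297 and 279 CPM in NC and 349, 441 and 443 CPM after the knockdown (adjusted p = 0.21).

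**Figure D2:**
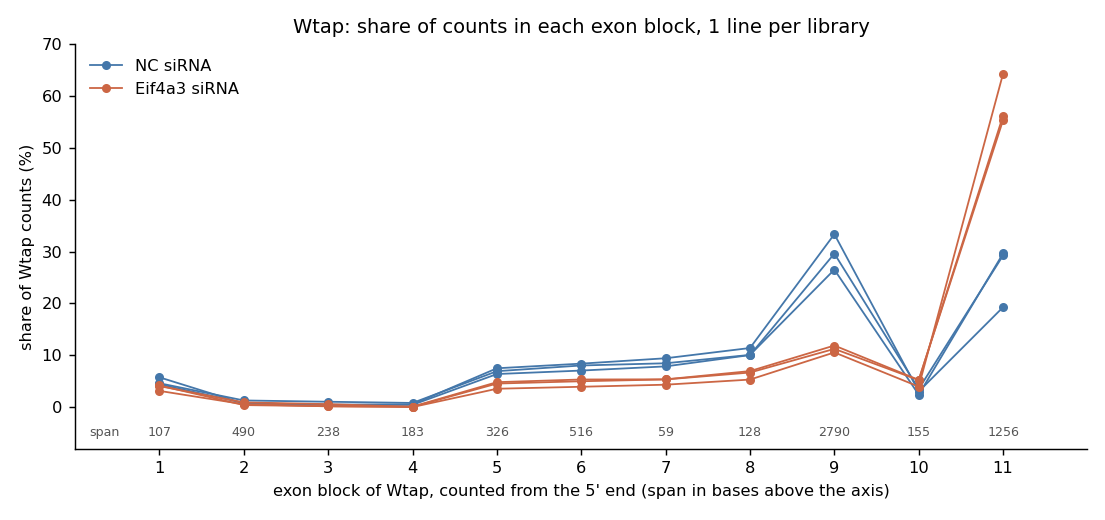
Share of Wtap counts (y axis, %) in each of its 11 exon blocks in order from the 5′ end (x axis, spans in bases printed above it), 1 line per library. Block 9, the long internal one, is lower in the 3 Eif4a3 siRNA libraries (10.6% to 11.9%) than in the NC libraries (26.5% to 33.4%), and block 11, the last, is higher. Blocks 4 to 8 are also lower without overlap, and only block 4 was called.

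The others named here had the smallest unadjusted p in their direction among blocks with little overlap by another gene, and none passed. Ccdc84, which came nearer to the threshold than Wtap, had shares of 7.97%, 5.14% and 4.11% in NC and 19.8%, 12.8% and 13.7% after the knockdown (adjusted p = 0.0795). Its counts also came largely from short exons inside the block: a 298-base line took 33, 33 and 28 counts in NC and 348, 171 and 239 after the knockdown. When first and last blocks were left out of the gene, the Ccdc84 change was -0.03 in place of 1.54, so its direction depended on the denominator. Lrrc8d, a subunit gene of volume-regulated anion channels, had shares of 6.11%, 13.9% and 13.8% in NC against 29.8%, 37.8% and 75.6% (adjusted p = 0.37). On the lower side, Bmp8b, a bone morphogenetic protein gene, had 1.87%, 6.03% and 4.97% in NC and 0.837%, 1.35% and 0.371% after the knockdown (adjusted p = 0.149). Trappc11, a subunit gene of the TRAPP trafficking complex, had 6.47%, 2.99% and 2.77% against 0.794%, 1.18% and 0.604% (adjusted p = 0.162), with 53 of its 57 counts in NC replicate 1 touching a 149-base exon line. Pnpla8, a phospholipase gene, had 14.5%, 20.1% and 21.0% against 7.01%, 6.40% and 6.95% (adjusted p = 0.191). In all 5 genes the groups did not overlap. Relative to the neighbouring blocks, the log2 changes were -0.02 for Ccdc84 and 2.99 for Lrrc8d. They were -2.38 for Bmp8b, -0.78 for Trappc11 and -0.42 for Pnpla8. The Bmp8b and Trappc11 blocks met the minimum of 30 counts only with the NC counts included.

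The wholly coding exons, which fit the name best, were examined as a class. Of the 218, 182 were tested and 0 were called by edgeR in either direction. At an unadjusted p under 0.05, 0 were higher and 6 were lower, and the shares of 7 were higher and of 24 lower without overlap between groups (3.21% and 11.01% of them, beside 10.7% and 8.51% of all tested blocks). Their median log2 change in share was -0.12, and -0.11 relative to their neighbouring blocks. In the same genes, 1719 blocks under 1000 bases with a coding internal exon had a median of 0.0079, with 162 higher and 133 lower without overlap (9.42% and 7.74%). The median of the long coding exons rested on individual pools: relative to the mean of all 6 libraries it was 0.13, -0.0066 and -0.05 in NC and 0.14, -0.21 and -0.21 after the knockdown. Knockdown replicate 1 thus lay with the highest NC library, and the median difference was -0.32 without that replicate, -0.06 without knockdown replicate 2, -0.03 without knockdown replicate 3 and -0.02 without NC replicate 1.

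Among the coding exons with the smallest unadjusted p, Slc45a4, which encodes a proton-coupled solute carrier, had 49, 13 and 13 counts in NC and 2, 1 and 2 after the knockdown. Its shares were 6.88%, 2.92% and 2.32% against 0.966%, 0.356% and 0.917%, and the usage change missed the threshold (log2 -2.53, adjusted p = 0.322). Rreb1, a zinc-finger transcription factor gene, had shares of 42.4%, 42.5% and 44.6% in NC and 19.4%, 28.9% and 20.2% after the knockdown (log2 -1.04, adjusted p = 1.0). These NC shares were close together and well above the knockdown ones, over a block of 5988 bases that runs on past the exon printed above. Pelp1, a nuclear receptor coregulator gene, had 13.5%, 11.2% and 8.96% against 4.05%, 6.37% and 4.04%. Rbm6, an RNA-binding protein gene, had 7.71%, 5.08% and 7.05% against 3.51%, 2.32% and 3.34%. Zc3hav1, a gene for an antiviral RNA-binding protein, had 4.83%, 4.37% and 2.58% against 2.80%, 0.980% and 1.12%, and Pcf11, a gene of the mRNA 3′ end cleavage machinery, had 17.4%, 5.34% and 19.3% against 5.33%, 6.51% and 5.13%. The shares of the last pair overlapped between groups, and all 4 had an adjusted p of 1.0. Relative to the neighbouring blocks, the log2 changes were -0.50 for Slc45a4, -0.43 for Rreb1 and -0.10 for Pelp1. They were -0.89 for Rbm6, 0.08 for Zc3hav1 and 0.07 for Pcf11. The falls of Pelp1, Zc3hav1 and Pcf11 were thus shared with the blocks beside them. The Slc45a4 and Zc3hav1 blocks met the minimum of 30 counts only with the NC counts included.

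Further coding exons were chosen after their values were seen, for shares that did not overlap, and all had an adjusted p of 1.0. Ranbp2, a nuclear pore gene, had a 4663-base block at 15.4%, 12.1% and 11.6% of the gene in NC and 5.87%, 10.4% and 4.72% after the knockdown. Nup214, also a nuclear pore gene, stood at 3.59%, 2.53% and 2.71% against 2.37%, 1.98% and 0.0689%. Rb1cc1, an autophagy initiation gene, had 17.5%, 26.7% and 24.9% against 14.6%, 16.7% and 12.3%. The 6836-base exon of Mki67, the proliferation marker, had 44.6%, 38.9% and 40.2% against 27.5%, 36.8% and 37.2%. On the higher side, Lrif1, a heterochromatin-associated gene, had 50.8%, 48.1% and 51.6% in NC and 58.8%, 59.1% and 58.5% after the knockdown. Hcfc1, a host cell factor gene, had 1.62%, 2.46% and 2.71% against 4.60%, 3.00% and 4.61%.

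Base composition gave little to tell the long coding exons apart. Their median GC content was 47.7%, and that of 2488 coding internal exons from 100 to under 1000 bases in the same genes was 47.4%. The letters GGACT, the core of the commonest m6A context, were found on the RNA strand in 8.97% of 4358 windows of 100 bases in the long exons and in 8.44% of 3447 such windows in the shorter ones, and the reverse complement AGTCC in 11.4% and 10.8%. The 24 exons with lower non-overlapping shares had a median GC content of 48.7%, the 7 with higher shares 43.4% and the 187 others 47.7%. Across the 218 exons, GC content and the change in share had a Spearman correlation of -0.17, a description over exons that share the 6 libraries and their depth.

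Last exons of shorter transcripts stood lower more often than higher. Of the 868 blocks of this kind, the shares of 67 were higher and of 172 lower without overlap (7.72% and 19.8% of them, beside 10.7% and 8.51% of all tested blocks), and the median log2 change was -0.08. Relative to the neighbouring blocks it was -0.10. Unlike the coding exons, this median separated the groups: relative to the mean of all libraries it was 0.02, 0.05 and 0.04 in NC and -0.09, -0.02 and -0.06 after the knockdown. In the test, 1 of 792 was called higher and 1 lower. At an unadjusted p under 0.05, 18 were higher and 38 lower, or 2.27% and 4.80% of those tested. Position along the gene, cut into 3 equal parts by block order, moved with this result. Among these blocks the median was 0.02 in the 5′ part of the gene, -0.05 in the middle part and -0.12 in the 3′ part. Internal blocks under 1000 bases also ran from 0.13 in the 5′ part through 0.0079 to -0.03 in the 3′ part, and all long internal blocks from 0.08 through -0.0091 to -0.06. The part of position in the result was not tested.

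Retained-intron exons, the most numerous kind, had a median log2 change of 0.02, with 250 higher and 190 lower without overlap (10.3% and 7.85%, near the 10.7% and 8.51% of all tested blocks) and 0 of 2147 called by edgeR (22 higher and 21 lower at an unadjusted p under 0.05). Together they held 2.85%, 2.81% and 2.84% of all counts in NC and 3.21%, 3.00% and 3.09% after the knockdown. These summed levels did not overlap, but a sum follows the abundance of the genes as well as the shares, and the median share in each library (-0.0079, -0.04 and -0.0014 in NC, 0.03, -0.03 and 0.0038 after the knockdown) did overlap. The 71 alternative first exons had a median of 0.05, with 14 higher and 5 lower (19.7% and 7.04%). Their median in each library also separated the groups, at -0.04, -0.12 and -0.04 in NC and 0.02, 0.03 and 0.06 after the knockdown. The 245 internal exons not wholly coding had a median of 0.0020, with 26 higher and 31 lower (10.6% and 12.7%).

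Blocks long only because shorter exons overlapped went the other way in their summed level, a separation that rested on the block of Actb. The 139 blocks held 1.38%, 1.10% and 1.19% of all counts in NC and 0.868%, 0.929% and 0.928% after the knockdown, without overlap. Their median log2 change in share was 0.0076, with 13 higher and 14 lower without overlap (9.35% and 10.1%), and 0 of 131 were called by edgeR (0 higher and 4 lower at an unadjusted p under 0.05). The most counted of them, chosen after its values were seen, lay in Actb, the cytoplasmic beta-actin gene. It held 110470, 44852 and 58549 counts in NC and 28077, 28457 and 20673 after the knockdown. All blocks of this kind held 253492, 172278 and 202227 counts in NC and 161661, 150125 and 173431 after the knockdown. With the Actb block taken out, the percentages of all counts held by the rest overlap between groups. The Actb block did not change in usage. Its mean share of the gene was 49.2% in NC and 49.3% after the knockdown, with overlapping groups.

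**Figure D3:**
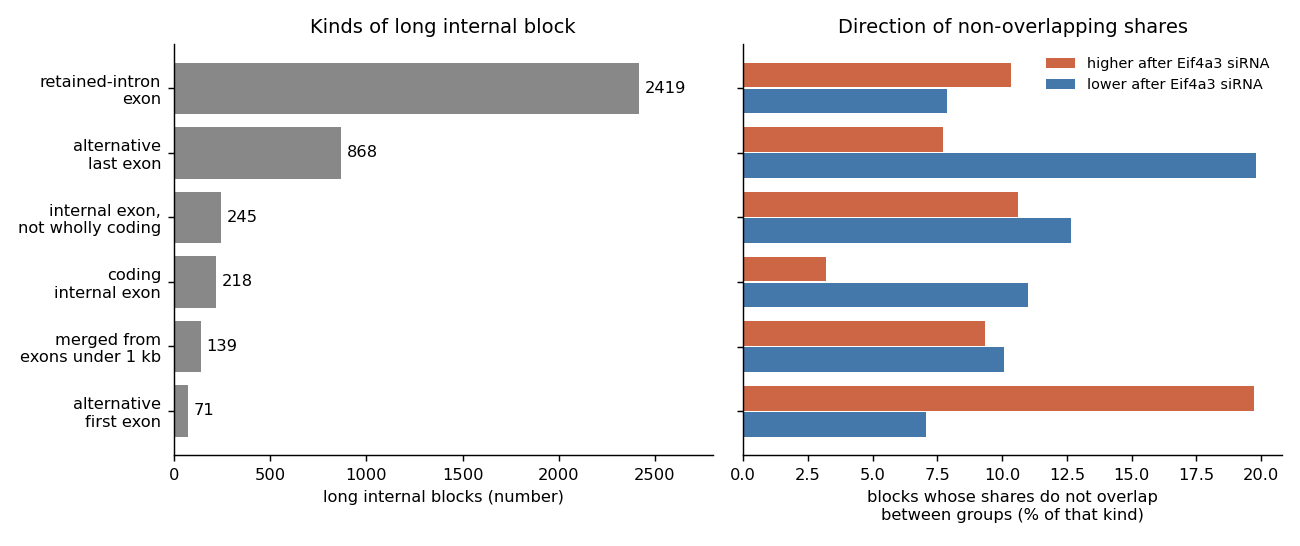
Left, number of long internal blocks of each kind by GENCODE vM21. Right, percent of each kind whose shares do not overlap between groups (x axis), higher (orange) or lower (blue) after Eif4a3 siRNA. Alternative last exons are lower in 19.8% and higher in 7.72%, and coding internal exons lower in 11.01% and higher in 3.21%. The 23 blocks without a vM21 exon of that length are not drawn.

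**Figure D4:**
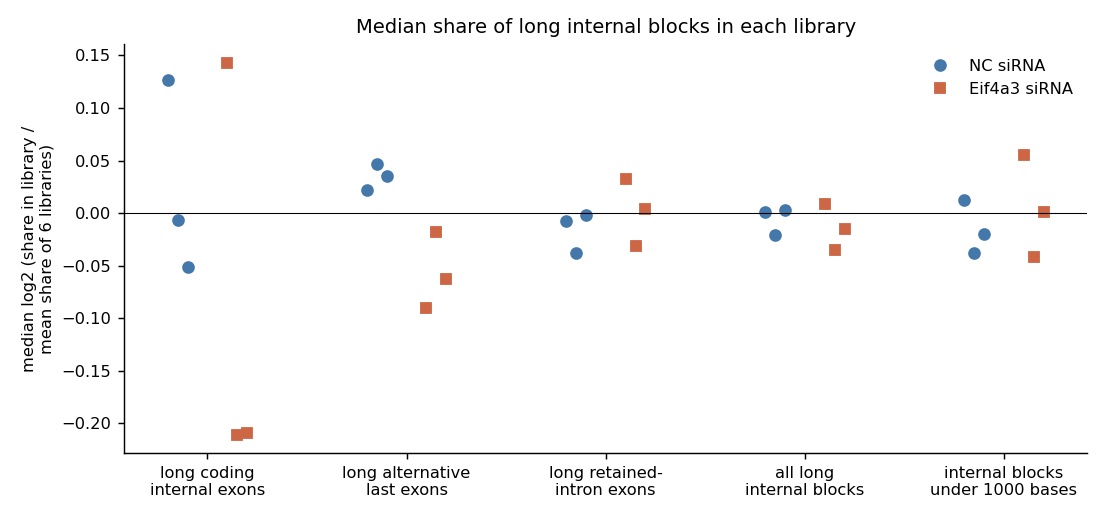
Median, over the blocks of a set, of the log2 ratio of the share in a library to the mean share of the 6 libraries (y axis), 1 point per library. Long alternative last exons separate the NC libraries (0.02 to 0.05) from the Eif4a3 siRNA libraries (-0.09 to -0.02), while the long coding internal exons have 1 Eif4a3 siRNA library at 0.14 and 2 at -0.21.

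The 5 longest blocks were a retained-intron model and 4 alternative last exons. The longest, 19684 bases in Ube2d3, a ubiquitin-conjugating enzyme gene (chr3:135438480-135458163, plus strand), is a retained-intron model that bridges several exons. Its shares were 14.9%, 15.2% and 14.1% in NC and 19.6%, 20.6% and 20.4% after the knockdown, a narrow and non-overlapping pair of groups whose usage change did not pass (log2 0.47, adjusted p = 1.0). Ahnak, a giant scaffold protein gene, followed with 17498 bases (chr19:9001699-9019196, plus strand), at 65.7%, 72.5% and 73.3% in NC and 38.4%, 34.9% and 40.7% after the knockdown (log2 -0.88, adjusted p = 1.0). N4bp2l2 (14768 bases), Strbp (14239 bases), a gene for a double-stranded RNA-binding protein, and Ago3 (12851 bases), an Argonaute gene, had mean shares of 19.2%, 12.5% and 8.31% in NC and 21.2%, 10.4% and 7.99% after the knockdown, all overlapping.

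By role, none of the 6 lists of genes had more than 1 block called, and most of the abundant long blocks named here had overlapping shares. For DNA repair and genome maintenance, 37 blocks in 22 genes had a median log2 change of -0.26, with 0 of 28 tested called by edgeR (1 higher and 2 lower at an unadjusted p under 0.05). Atrx, a chromatin remodeler gene, had a 3014-base coding exon at 21.9%, 24.9% and 19.4% in NC and 24.8%, 19.9% and 21.5% after the knockdown. Rif1, which acts in double-strand break repair and replication timing, had 8.04%, 12.5% and 6.56% against 4.64%, 8.35% and 6.63%, and Esco2, a cohesin acetyltransferase gene, had 32.1%, 35.8% and 39.8% against 33.7%, 39.4% and 39.8%. Among histone and DNA modifiers, 108 blocks in 48 genes had a median of -0.07, with 0 of 87 called (0 and 1 at an unadjusted p under 0.05). The exon of Setd2, the H3K36 methyltransferase gene, had 32.0%, 25.9% and 32.6% in NC and 46.9%, 35.2% and 54.3% after the knockdown, non-overlapping but not past the threshold (log2 0.58, adjusted p = 1.0). Relative to its neighbouring blocks, the log2 change of the Setd2 exon was 0.06. Tet2, a 5-methylcytosine dioxygenase gene, had 44.8%, 37.9% and 46.9% against 52.1%, 28.9% and 25.7%, and Resf1, a retroelement silencing gene, had 63.7%, 62.5% and 61.2% against 59.7%, 61.0% and 56.4%.

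Transcription factors and coregulators had 34 blocks in 19 genes with a median of 0.0020 and 0 of 27 called (1 and 2 at an unadjusted p under 0.05). Besides Rreb1, the most counted were Zfp106, at 21.3%, 13.3% and 9.57% in NC and 21.0%, 10.1% and 18.1% after the knockdown, and Bclaf1, at 15.4%, 15.7% and 18.7% against 9.07%, 15.6% and 11.8%. Mitosis, spindle and centrosome genes had 36 blocks in 25 genes with a median of 0.00063 and 0 of 33 called, with 0 at an unadjusted p under 0.05. Ckap2l, a spindle protein gene, had 46.1%, 41.4% and 51.9% against 45.4%, 47.1% and 46.4%. Plk4, the kinase gene of centriole duplication, had 24.5%, 29.8% and 36.7% against 36.5%, 32.4% and 37.0%. The block of Sgo2a, a gene that protects centromeric cohesion, was 89.8% covered by another gene's exons and is left without values. RNA processing and nuclear speckle genes had 68 blocks in 35 genes with a median of -0.03 and 0 of 58 called (0 and 1 at an unadjusted p under 0.05). Son, a speckle scaffold gene, had 20.2%, 20.9% and 21.2% against 16.8%, 17.4% and 20.4%, and Srrm1, a splicing coactivator gene, had 27.0%, 28.3% and 29.0% against 26.5%, 29.2% and 29.7%. Cytoskeleton, membrane and scaffold genes had 56 blocks in 34 genes with a median of 0.10, and 1 of 39, the Palld block, was called higher. Besides Ahnak, Arhgap5, a GTPase-activating protein gene, had 56.4%, 56.3% and 58.7% against 66.0%, 62.1% and 61.0%, and Akap12, a kinase anchoring protein gene, had 41.5%, 33.0% and 26.4% against 32.1%, 18.8% and 27.8%.

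Some abundant coding exons were named after their values were seen. Dnttip2, a nucleolar protein gene, had 1380, 1468 and 1334 counts in its 1613-base exon in NC and 2363, 1345 and 2192 after the knockdown, yet its share was 62.4%, 66.6% and 63.5% against 65.7%, 58.4% and 63.2%. Ythdf2, an m6A reader gene, had 71.5%, 66.6% and 72.2% against 66.0%, 52.2% and 55.9%, which did not overlap but gave an adjusted p of 1.0. The shares of Cpt2, a mitochondrial fatty acid oxidation gene, were 53.2%, 53.7% and 58.1% against 51.6%, 50.1% and 59.1%. The exon of Cand1, a cullin regulator gene, had 20.2%, 15.5% and 16.5% against 19.1%, 13.0% and 13.3%.

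At the level of whole genes, 130 of the 2850 genes with a long internal block were higher after the knockdown and 184 were lower by edgeR's quasi-likelihood test, beside 7.52% higher and 5.56% lower of all 15619 genes tested (13.1% in either direction). Genes with 50 counts in every library, which is the pool the rule draws on, were called at 11.4% (5.13% higher and 6.3% lower), and the genes with a long block at 11.02% (4.56% and 6.46%), near that background. In pools of whole embryos, fewer cells of a type and less RNA per cell cannot be told apart. Genes with a wholly coding long exon were higher in 3 and lower in 15 of 205, with a median log2 change of -0.14, beside -0.04 for genes with 50 counts in every library. Leaving out 1 library gave between 98 and 398 called genes in place of 314, and the count moved by more than 1.5 times without NC replicate 1 (104), NC replicate 2 (98), NC replicate 3 (163), knockdown replicate 2 (135) or knockdown replicate 3 (145). Of all genes tested, these leave-one-out fits called 5.27% to 14.5%.

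The largest rises were in Snhg17, P2rx7, H2-Ab1, Slc38a11, Bglap3 and Lrrc28, and in none of these was the long block a wholly coding exon. Snhg17, a small nucleolar RNA host gene, had 19.9, 17.5 and 17.7 CPM in NC and 154, 281 and 260 CPM after the knockdown (log2 3.66, SE 0.33, adjusted p = 0.000752). P2rx7, an ATP-gated channel gene, went from 3.98, 16.3 and 21.0 to 134, 178 and 184 CPM, and H2-Ab1, an MHC class II gene, from 5.57, 16.1 and 3.61 to 56.0, 37.0 and 135 CPM. Slc38a11, an amino acid transporter family gene, went from 10.4, 12.5 and 12.3 to 132, 88.7 and 76.0 CPM, Bglap3, an osteocalcin-related gene, from 19.9, 37.7 and 39.8 to 219, 290 and 275 CPM, and Lrrc28 from 17.6, 20.7 and 28.8 to 131, 158 and 196 CPM. Their log2 changes ran from 2.86 to 3.66, and in all 6 every knockdown library was above every NC library.

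The largest falls were in Lcp1, Ccnd3, Zyx, Helz, Pkm and Ndrg1, whose long blocks were also not wholly coding exons. Ccnd3, the cyclin D3 gene, went from 456, 205 and 218 to 42.6, 22.6 and 30.2 CPM (log2 -3.20, SE 0.41, adjusted p = 0.00257). Lcp1, an actin-bundling protein gene, went from 353, 110 and 149 to 20.7, 34.4 and 8.31 CPM, and Zyx, the focal adhesion protein zyxin, from 126, 53.4 and 54.0 to 10.1, 14.8 and 3.49 CPM. Helz, an RNA helicase gene, went from 58.5, 38.6 and 34.5 to 4.83, 8.72 and 3.37 CPM, and Pkm, the pyruvate kinase gene, from 207, 102 and 41.0 to 24.6, 13.9 and 7.94 CPM. Ndrg1, a stress-responsive gene, went from 257, 72.7 and 142 to 24.7, 38.8 and 3.43 CPM (adjusted p = 0.0332), a call lost without knockdown replicate 1, NC replicate 1 or NC replicate 3 (0.0611 to 0.0983) and with exon lines summed (0.0508). Without knockdown replicate 2, Pkm missed the threshold (adjusted p = 0.0583). NC levels of Lcp1, Pkm and Ndrg1 varied widely between pools, and no NC library fell to a knockdown level.

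**Figure D5:**
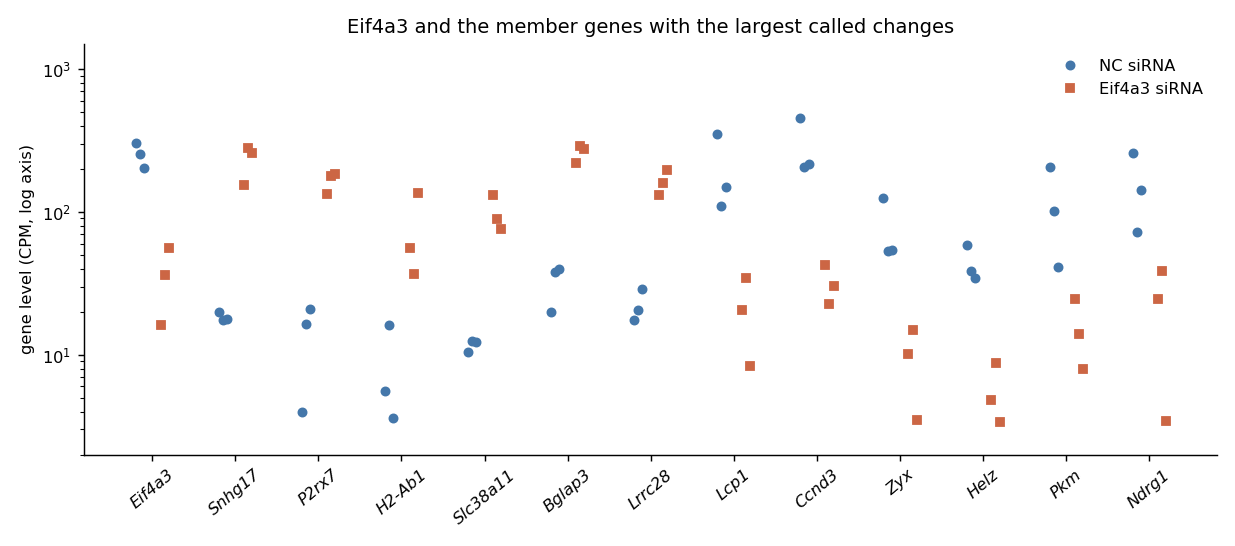
Level of Eif4a3 and of the 12 genes with a long internal block and the largest called changes (y axis, CPM, log scale), 1 point per library, NC in blue circles and Eif4a3 siRNA in orange squares. No group overlaps the other in any of the 13 genes.

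The partners of Eif4a3 and the m6A machinery were read from fixed lists. Of 12 exon junction complex genes tested, 1 fell, Eif4a3 itself, and 0 rose, beside the 7.52% higher and 5.56% lower of all genes tested. They held 4 long blocks in 3 genes, with a median log2 change in share of -0.28. Of 3 blocks tested, 0 were called by edgeR, and 1 was lower at an unadjusted p under 0.05. Of 18 genes of m6A writers, erasers and readers, 0 rose and 1 fell: Igf2bp3, an m6A-binding protein gene, at 71.3, 55.7 and 54.5 CPM in NC and 28.6, 24.4 and 15.4 CPM after the knockdown (log2 -1.41, SE 0.32, adjusted p = 0.0201). The m6A genes held 15 long blocks in 11 genes, 5 of them wholly coding, with a median log2 change in share of -0.15. None of 13 tested was called by edgeR, and 1, the Wtap block, was lower at an unadjusted p under 0.05. The role list that moved most at the gene level was the cytoskeleton, membrane and scaffold list. Of its 91 genes tested, with or without a long block, 2 were higher and 22 lower, beside 7.52% higher and 5.56% lower of all genes tested. Long blocks lay in 34 genes of this list. The lower genes included Arhgap5 (log2 -1.22, adjusted p = 0.0317) and Akap12 (log2 -1.88, adjusted p = 0.00918). Blastocyst lineage markers fell as well, and a link between the falls was not tested.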

How the data were processed

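The deposited table gives whole-number read counts per exon line, made by the authors with featureCounts 2.0.1 on GENCODE vM29 exons lifted to GRCm38, per the file headers. Its options counted each exon line separately, let a read count for every line it overlapped and used strand setting 2. Smart-seq2 does not mark strand, so reads of antisense partners cannot be told apart, and fragments read from the other strand go uncounted. In 55 pairs of lines on opposite strands that cover each other by 90% or more and hold at least 100 counts, the less counted line held a median of 48.6% of the pair's counts (38.9% to 50%). The counts and totals given thus miss a part of the fragments of each gene. A read pair that touched several blocks of a gene counted in each of them, so gene and library totals also hold repeat counts. Reads were aligned with STAR 2.7.6a after fastp 0.20.1, per the submitters' processing notes. Columns named "si" were taken as the siRNA-Eif4a3 libraries.

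Of 842173 lines, 449500 were distinct, and each block took the count of its most counted line. Block usage was tested with edgeR 4.0.16 (filterByExpr, TMM, diffSpliceDGE) and gene levels with its quasi-likelihood test, both fitted on the whole table with Benjamini-Hochberg adjustment at 0.05, after tests on simulated data. Alternatives used limma 3.58.1 and DESeq2 1.42.0. Totals of 15607226 to 18697761 counts per library limit blocks near 30 counts most.

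Blocks were named when called, with non-overlapping shares and under 10% overlap by another gene (up to 10 each way, filled to 5 by unadjusted p), as the 5 longest, or as the 3 most counted of a role list, and genes as the 6 largest called changes each way, without predicted names. A block that this rule names is not reported here. Coding exons outside these were added later. The members and lists were chosen with earlier results of these data known.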

Additional observations from a re-analysis of the deposited data

How the results depend on the processing

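Long blocks called in usage numbered 4 of 3558, beside 0.175% of all blocks tested. They numbered 20 with limma's test (beside 0.367% of all) and 1 with the exon lines of a block summed (0.111%). With a length minimum of 500 bases they numbered 10, and with one of 2000 bases 1. With 1 library left out they numbered 0 to 3, beside 0.028% to 0.226% of all blocks tested. At the other length minimums the fit was the same and only the set of blocks changed, with 6823 and 1718 tested in place of 3558. Fewer samples were fitted with 1 library left out. The cause of the remaining differences was not tested. Genes with a long block called lower numbered 184, and 281 with DESeq2. DESeq2 called 16% of all genes it tested in either direction, against 13.1% in the analysis reported. The fits with 1 library left out called 5.27% to 14.5% of all genes tested. With 1 library left out, 39 to 128 genes with a long block were higher, 54 to 270 lower and 98 to 398 called either way. The median change in share then lay between -0.0211 and 0.0029 for all long blocks, between -0.316 and -0.0232 for coding internal exons and between -0.119 and -0.0637 for alternative last exons, which gave -0.11 at 2000 bases or more. The splits by kind were tried after seeing the data. Of 128 values of these results under the alternatives, 98 stayed within the limits set for a change and 30 did not: 22 counts were lower, 4 counts higher and 4 medians moved.

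Replicate numbers are not known to pair the pools. Deviations of same-numbered libraries from their group means correlated at 0.37, 0.00073 and 0.13. The best match of NC replicate 1 was the knockdown library of its own number, and that of NC replicate 2 the one numbered 3 (0.27). NC replicate 3 matched the one numbered 2 (0.14) about as well as its own number. With 3 libraries per group this check cannot exclude pairing. With the replicate number as a block, 7 long blocks were called in place of 4 and 430 genes in place of 314. The shares of all blocks and all genes called were then 0.274% and 16.2%, in place of 0.175% and 13.1%. The Wtap block (adjusted p = 0.00241) and the Ccdc84 block (0.0341) then passed and Nfe2l2 (0.128) did not.

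Among blocks not called in the analysis reported, Atrx (-0.0231) and Bclaf1 (0.0705) changed sign with exon lines summed, Ccdc84 (-0.0267), Ckap2l (-0.0538), Srrm1 (-0.0035) and Zfp106 (-0.0257) with internal blocks as the denominator, and Ckap2l with limma (-0.0359). Leaving out 1 library gave log2 usage changes of -0.43 to 0.33 for Ago3, -0.0754 to 0.186 for Atrx, -0.0638 to 0.0669 for Ckap2l, -0.0667 to 0.0257 for the shorter N4bp2l2 block, -7.557e-05 to 0.0622 for Srrm1 and -0.0789 to 0.472 for Zfp106. Depth limits blocks of few counts most: 425 long blocks did not pass the filter on low counts.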
